A study of Danio rerio with 16 samples.

Results

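Zebrafish dre-miR-103, dre-miR-107, dre-miR-190 and dre-miR-190b, called miR-103, miR-107, miR-190 and miR-190b from here on, were followed through the array data as 2 pairs of related microRNAs (miRNAs, short RNAs that repress messenger RNAs). They are 4 of the 245 zebrafish miRNAs on the array, and were picked by exact name in the scanner files. Total RNA came from whole embryos of the wild-type TL strain, kept from 4 hours post-fertilization (hpf) in valproic acid (VPA, an anticonvulsant and histone deacetylase inhibitor) or in its ethanol vehicle. The groups were VPA embryos at 96 hpf, vehicle embryos at 96 hpf, VPA embryos at 48 hpf and vehicle embryos at 48 hpf, with 4 arrays each and 16 arrays in all. The labels used here give no dose, no number of embryos per sample and do not say whether replicates came from separate clutches. The spread behind each p-value is therefore that of the arrayed samples and may be technical. The names were listed with the VPA-against-vehicle values of these arrays known, and those values are therefore given as a description with no test. The comparisons with age use the same arrays, so their p-values are not independent of that listing.

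A miRNA guides its protein complex to messenger RNAs mainly through the seed near its 5′ end, so relatives with the same seed can share targets while differing at the 3′ end. In vertebrates the miR-103 and miR-107 hairpins lie in introns of pantothenate kinase genes, which encode the enzyme that starts coenzyme A synthesis. In mice and human cells these miRNAs are known to repress Dicer, the enzyme that cuts miRNA precursors, and to affect insulin signalling. The mammalian miR-190 hairpin lies in an intron of talin 2, which encodes an adaptor between integrins and actin.

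The probes are shown first, because the pairs differ in how far an array can separate them. The brightest probe of miR-103, of miR-107 and of miR-190b, the longer probe of miR-190, and the brightest probe of miR-107b (a relative outside the set) are written 5′ to 3′ from the scanner files. For miR-103 and miR-107 the capital is the base at which the probes differ where they overlap. For the other probes capitals mark the run of bases shared with the relative or relatives.
miR-103 probe: tCatagccctgtacaatg
miR-107 probe: tGatagccctgtacaatgct
miR-107b probe: aaAGCCCTGTACAATGc
miR-190 probe: acctaatATATCAAACATATca
miR-190b probe: caaccgaATATCAAACATAT

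The RNA that would pair with each probe of the members along its whole length reads as follows.
miR-103: cauuguacagggcuauga
miR-107: agcauuguacagggcuauca
miR-190: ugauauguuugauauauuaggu
miR-190b: auauguuugauauucgguug

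The miR-103 and miR-107 probes differed by 1 substitution over their common length, C2G counted from 1 at the 5′ end with the miR-103 base first. The miR-107 probe was 20 bases long against 18 bases for miR-103. They shared a run of 16 bases (atagccctgtacaatg) that occurred in 3 probes of 2 miRNAs, or 0.579% of the 518 zebrafish probes. With miR-107b the common run was 14 bases (agccctgtacaatg), found in 5 probes of 3 miRNAs (0.965% of probes). The miR-190 and miR-190b probes shared 13 bases (atatcaaacatat), which occurred in 3 probes of those 2 miRNAs (0.579%), and their first 7 bases set them apart. How much of one relative's signal came from another was not tested.

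On the danRer6 (Zv8) build named in the scanner files, the brightest miR-103 probe was placed at chr13:15282588-15282604. The miR-107 probe was placed at chr12:16379169-16379187, which the file writes in descending order. The miR-190b probe was placed at chr14:14775389-14775407 and the miR-107b probe at chr17:21227107-21227122, while the miR-190 probes carried an unplaced scaffold. The intervals are as the files give them and are each a base shorter than the probe.

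Host genes were looked up in the RefSeq gene table, whose newer build (GRCz12tu) was used only for names. The miR-103 hairpin lay within the span of pank2 and that of miR-107 within pank1b, both pantothenate kinase genes, and miR-107b lay within pank1a. The miR-190 hairpin lay within the spans of tln2b (a talin 2 gene) and etfa (a subunit of the electron transfer flavoprotein). The miR-190b hairpin lay within the long noncoding RNA LOC137487838 and within no talin gene. This entry lies on chromosome 16 of the newer build, whereas the scanner files place the miR-190b probe on chromosome 14 of danRer6. The chromosomes of the 2 builds are the same for miR-103, miR-107 and miR-107b. The host given for miR-190b therefore rests on the match by name alone, and a talin host was found for miR-190 only. Spans of genes do not tell introns from exons, and the host transcripts are not measured by this array.

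The array was a 1-colour Agilent miRNA array, and a value is the log2 of a probe's background-subtracted intensity over its array's 75th percentile. An array's 75th percentile ran from 1249 to 6179 in VPA embryos at 96 hpf, against 1956 to 2406 in vehicle, and from 507 to 2356 in VPA embryos at 48 hpf, against 897 to 1220 in vehicle. VPA replicates 3 and 4 at 96 hpf (3415 and 6179) and VPA replicate 4 at 48 hpf (2356) were brighter than every vehicle array of their age, and results are also given without these 3 arrays where they moved. All 96 hpf arrays lay on 1 slide and all 48 hpf arrays on another, so age and slide cannot be told apart. On each slide VPA and vehicle arrays lay in separate lines of positions, so treatment and position cannot be told apart either. Markers of muscle, neurons, liver, blood, sensory organs, endothelium and skin were well above background on at least 3 arrays of a group for 13 of 13 names in 3 groups, and for 12 in VPA embryos at 48 hpf, where liver miR-122 was detected on 2 of 4 arrays. In such bulk RNA, fewer cells of a type and less of a miRNA per cell cannot be told apart.

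Of the 245 zebrafish miRNAs, 178 were detected well enough to be tested, and these included miR-103, miR-107 and miR-190b. miR-190 was not well above background on any of the 16 arrays. The 4 members thus gave 3 with values in the fit (limma, group means of all 16 arrays, Benjamini-Hochberg adjustment over 178 miRNAs, threshold 0.05). The fit called 1 of the 3 at 96 hpf and 3 of the 3 at 48 hpf between VPA and vehicle, beside 33.1% and 29.2% of all 178 miRNAs, and nothing is read from these counts because the members were listed with them known.

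**Figure D1:**
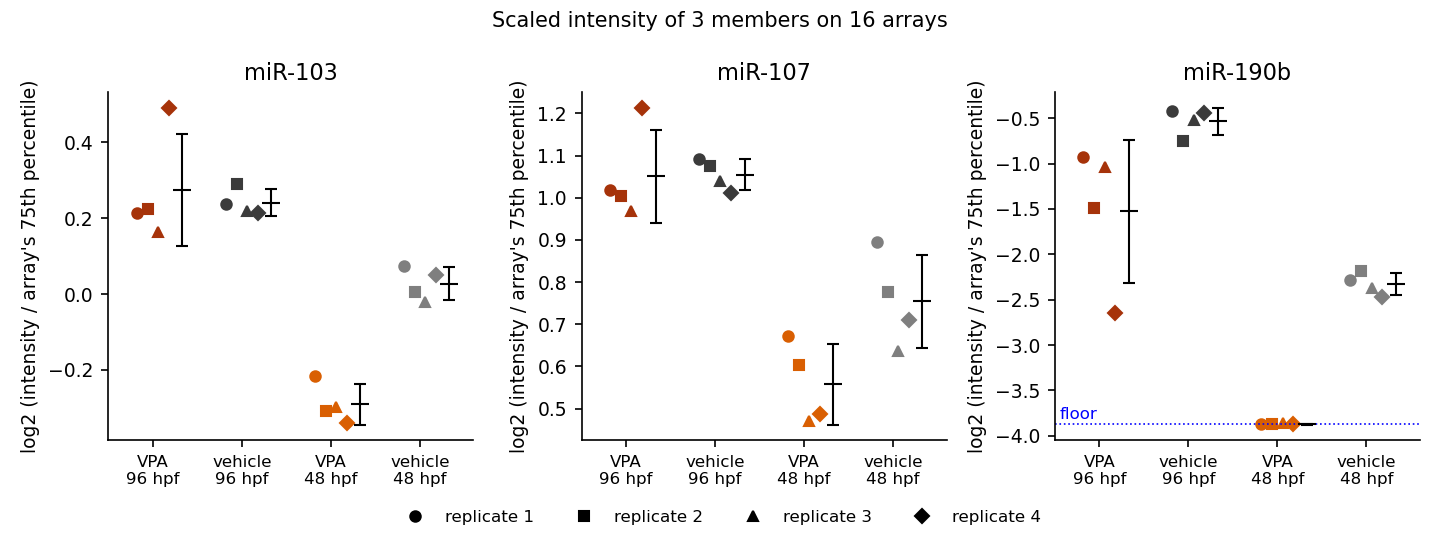
Log2 intensity over the array's 75th percentile (vertical axis, a scale per panel) for the brightest probes of miR-103, miR-107 and miR-190b on each of 16 arrays in 4 groups; symbols are replicates, and the bar beside each group is the mean with its SD (n = 4). VPA replicate 4 at 96 hpf is the highest array of its group for miR-103 and miR-107 and the lowest for miR-190b, and miR-190b lies at the floor on the VPA arrays at 48 hpf.

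miR-103 was detected on all 16 arrays by both of its probes. At 96 hpf it stood at 0.22, 0.23, 0.16 and 0.49 in VPA embryos (log2 scale, replicates 1 to 4), against 0.24, 0.29, 0.22 and 0.21 in vehicle embryos. The groups overlapped, and 3 of the 4 VPA arrays lay below the vehicle mean while replicate 4 lay above every vehicle array. The means were 0.27 ± 0.15 in VPA and 0.24 ± 0.04 in vehicle embryos (SD, n = 4 each), a log2 change of 0.03 ± 0.06 (SE). Without VPA replicate 4 the change was -0.04.

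At 48 hpf miR-103 stood at -0.215, -0.31, -0.30 and -0.34 in VPA embryos, against 0.07, 0.01, -0.02 and 0.05 in vehicle embryos. Every VPA array lay below every vehicle array, as was so for 41.6% of all 178 miRNAs in one direction or the other. The means were -0.29 ± 0.05 in VPA and 0.03 ± 0.04 in vehicle embryos (SD, n = 4 each). This is 1.25-fold lower in VPA embryos, a log2 change of -0.32 ± 0.06 (SE). The shorter, 17-base miR-103 probe gave -0.34 at 48 hpf, with no overlap, and 0.06 at 96 hpf, with overlap.

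Before scaling, the mean spot intensity of miR-103 ran from 416 to 1870 in VPA embryos at 48 hpf and from 886 to 1290 in vehicle embryos. At 96 hpf it ran from 1459 to 8716 in VPA and from 2415 to 2807 in vehicle embryos. The separation at 48 hpf is thus seen on scaled values and not on raw intensity, where the brightest VPA array exceeded all vehicle arrays.

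miR-107 was also detected on all 16 arrays. At 96 hpf it stood at 1.02, 1.004, 0.97 and 1.21 in VPA embryos, against 1.09, 1.08, 1.04 and 1.01 in vehicle embryos. The means were 1.05 ± 0.11 and 1.05 ± 0.04 (VPA, then vehicle; SD, n = 4 each), with a log2 change of -0.0039 ± 0.07 (SE), and replicate 4 was again the highest VPA array.

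At 48 hpf miR-107 stood at 0.67, 0.60, 0.47 and 0.49 in VPA embryos, against 0.89, 0.78, 0.64 and 0.71 in vehicle embryos. The groups overlapped, since VPA replicate 1 lay above vehicle replicate 3, although all 4 VPA arrays lay below the vehicle mean. The means were 0.56 ± 0.10 in VPA and 0.75 ± 0.11 in vehicle embryos (SD, n = 4 each), which is 1.15-fold lower in VPA (log2 change -0.20 ± 0.07, SE). When each array was left out in turn, 9 of 16 fits no longer called this difference. The shorter, 19-base miR-107 probe gave -0.10 at 48 hpf and 0.05 at 96 hpf, with overlap both times.

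The order of the levels was the same in outline for both relatives. VPA embryos at 48 hpf were lowest and vehicle embryos at 48 hpf next, with overlap between them for miR-107 and none for miR-103. The 96 hpf groups were highest and overlapped each other for both miRNAs. Relative to vehicle, the log2 change in VPA embryos was higher at 96 hpf than at 48 hpf by 0.35 for miR-103 and by 0.19 for miR-107, a difference that was not tested.

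Both miRNAs were higher at 96 hpf than at 48 hpf. Each age lay on its own slide, so a rise with age cannot be told apart from a difference between slides. The p-values below share arrays with the VPA-against-vehicle values known when the names were listed, and are to be read with that limit. In VPA embryos miR-103 was 1.48-fold higher at 96 hpf than at 48 hpf (log2 change 0.56 ± 0.06, SE, limma adjusted p = 7.70e-07), and in vehicle embryos it was 1.16-fold higher (0.21 ± 0.06, adjusted p = 0.00568). For miR-107 the log2 change with age was 0.49 ± 0.07 in VPA (limma adjusted p = 8.11e-06) and 0.30 ± 0.07 in vehicle embryos (adjusted p = 0.00082). All 96 hpf arrays lay above all 48 hpf arrays of the same treatment for both miRNAs and for all of their probes. Such changes were common. In VPA embryos 77.5% of the 178 miRNAs were called with age, 41.6% higher and 36.0% lower, and 70.2% had ages that did not overlap. In vehicle embryos 80.3% were called, 46.1% higher and 34.3% lower, and 82.6% did not overlap. Rising with age is therefore not particular to miR-103 and miR-107. In raw intensity the ages did not overlap in vehicle embryos for either miRNA but did overlap in VPA embryos. The 75th percentiles of the vehicle arrays did not overlap either (1956 to 2406 at 96 hpf, 897 to 1220 at 48 hpf). On unscaled values the median log2 change of all miRNAs with age in vehicle embryos was 0.98. The share of all miRNAs without overlap in raw intensity was not computed.

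The pair was contrasted within each array, where scaling cancels. The log2 difference of the miR-103 probe minus the miR-107 probe is read only for how it moved between groups, since probes differ in brightness. At 96 hpf it was -0.80, -0.78, -0.81 and -0.72 in VPA embryos, against -0.85, -0.785, -0.82 and -0.80 in vehicle embryos, so it moved by 0.04 ± 0.02 (SE) with overlap. At 48 hpf it was -0.89, -0.91, -0.77 and -0.83 in VPA embryos, against -0.82, -0.77, -0.66 and -0.66 in vehicle embryos. It moved there by -0.12 ± 0.05 (SE), again with overlap, in the direction of less miR-103 relative to its partner in VPA embryos.

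With age the difference moved by 0.07 in VPA embryos (exact two-sided permutation p = 0.143, n = 4 against 4) and by -0.09 in vehicle embryos (exact p = 0.114). Over these 2 tests the adjusted p was 0.143 for each, where the smallest possible p is 0.0286. The size of these moves depended on the miR-107 probe. With age in VPA embryos the difference moved by 0.16 with either miR-103 probe against the 19-base miR-107 probe, with no overlap, and this alternative was not tested. With age in vehicle embryos the 4 probe combinations gave -0.15 to -0.03, each with overlap. Against the 19-base miR-107 probe the 48 hpf change was -0.22 with the 18-base and -0.24 with the 17-base miR-103 probe, with no overlap. Against the 20-base miR-107 probe it was -0.12 and -0.15, with overlap. All 4 combinations at 48 hpf moved in the direction of less miR-103, and whether the groups overlapped depended on the miR-107 probe.

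**Figure D2:**
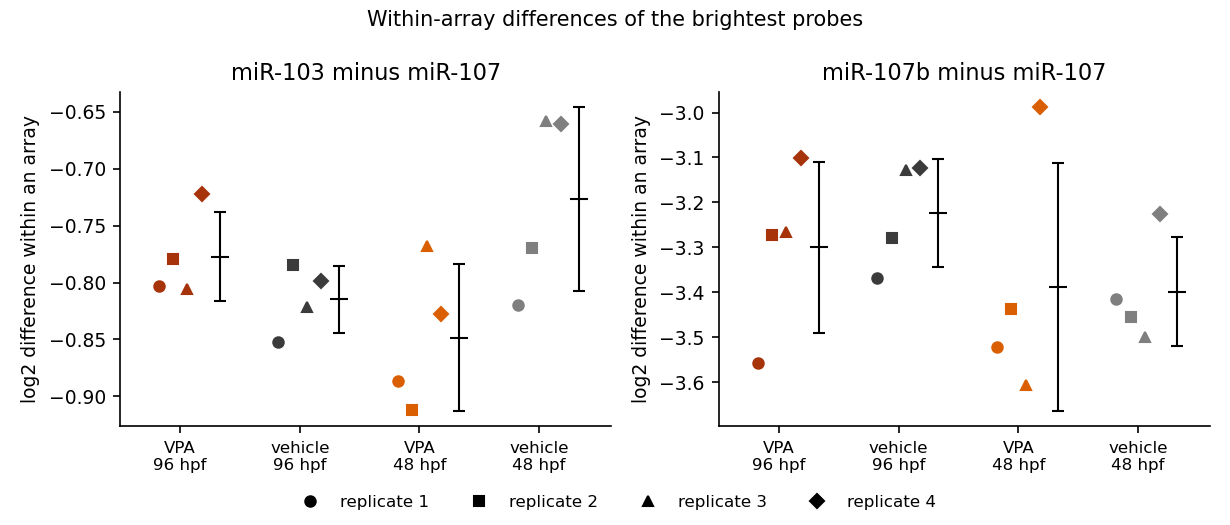
Log2 difference within each array (vertical axis) of miR-103 minus miR-107 on the left and of miR-107b minus miR-107 on the right, by group; symbols are replicates and bars are means with SD (n = 4). The groups overlap in both panels, and the miR-103 minus miR-107 mean is -0.85 in VPA and -0.73 in vehicle embryos at 48 hpf.

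miR-107b, the relative within pank1a, was dimmer. Its log2 change between VPA and vehicle embryos was -0.08 at 96 hpf and -0.19 at 48 hpf, where 2 of 4 VPA arrays and 4 of 4 vehicle arrays were well above background, and the fit called neither. With age it rose by 0.47 in vehicle embryos (limma adjusted p = 0.0051), with no overlap. In VPA embryos the fitted change with age was 0.58, but the ages overlapped and only 2 of 4 arrays at 48 hpf were well above background, so no p is given. Its within-array difference from miR-107 moved by -0.08 at 96 hpf and 0.01 at 48 hpf between VPA and vehicle, with overlap.

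miR-190b moved more than the pantothenate kinase pair. At 96 hpf its 20-base probe stood at -0.93, -1.49, -1.04 and -2.65 in VPA embryos, against -0.42, -0.75, -0.525 and -0.45 in vehicle embryos. Every VPA array lay below every vehicle array, beside 32.0% of all 178 miRNAs without overlap at this age. The means were -1.53 ± 0.79 in VPA and -0.54 ± 0.15 in vehicle embryos (SD, n = 4 each), or 1.99-fold lower in VPA (log2 change -0.99 ± 0.26, SE). Replicate 4, the brightest array of the study, carried much of the spread, and without it the log2 change was -0.62. Without both bright VPA arrays of that age it was -0.67.

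At 48 hpf miR-190b was well above background on 4 of 4 vehicle arrays, at -2.28, -2.19, -2.37 and -2.47 (mean -2.33 ± 0.12, SD). It was well above background on 0 of 4 VPA arrays, all of which lay at or within 0.01 of the floor of -3.87. A bound is therefore given, set against the lowest signal, after flooring, that was well above background on each VPA array. On VPA replicate 4 that signal was the floor itself (-3.87). The bound holds for this background subtraction, scaling and probe only. It is not a strict limit, because an undetected probe can lie above the dimmest detected one. On vehicle replicate 1 at 96 hpf the 17-base miR-190b probe was undetected at -3.50, while the dimmest detected probe stood at -3.77. Normexp background correction, which added an offset of 50, gave a log2 change of -0.18, smaller than the bound. The mean of all miR-190b probes gave -0.39. There the shorter probes lay at or near the floor in both groups and diluted the change of the 20-base probe. That mean is therefore not a separate estimate. By this bound miR-190b was 1.68-fold lower in VPA embryos on the mean of the arrays. Taken one at a time, VPA replicates 1 to 4 gave bounds of 1.60-fold, 1.33-fold, 1.30-fold and 2.92-fold lower. The largest came from replicate 4, the bright VPA array of this age, and it raises the mean bound above that of each other array.

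The raw intensity of the same probe at 48 hpf was 28.4, 10.96, 14.3 and 64.3 in VPA embryos, against 252, 259, 174 and 222 in vehicle embryos. These did not overlap, and they include the VPA array that was brighter than every vehicle array. At 96 hpf the raw intensity was 656, 525, 1667 and 988 in VPA embryos, against 1549, 1173, 1459 and 1768 in vehicle embryos, and there the groups overlapped.

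The 4 nested miR-190b probes differed in what they detected. The 17-base probe was well above background on no array. The 18-base and 19-base probes were so on 8 of 8 arrays at 96 hpf and on 0 of 8 at 48 hpf, and the 20-base probe on 12 of 16. At 96 hpf the log2 change between VPA and vehicle was -0.66 with 18 bases, -0.73 with 19 and -0.99 with 20, each with no overlap. With 18 and 19 bases VPA replicate 4 lay at the floor of -3.87, so the sizes of those 2 changes depend on the floor. The low miR-190b signal in VPA embryos at 96 hpf was thus seen with each of the 3 probes that measured it, while that at 48 hpf rests on 1 probe. These probes share their sequence and are not independent measurements.

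**Figure D3:**
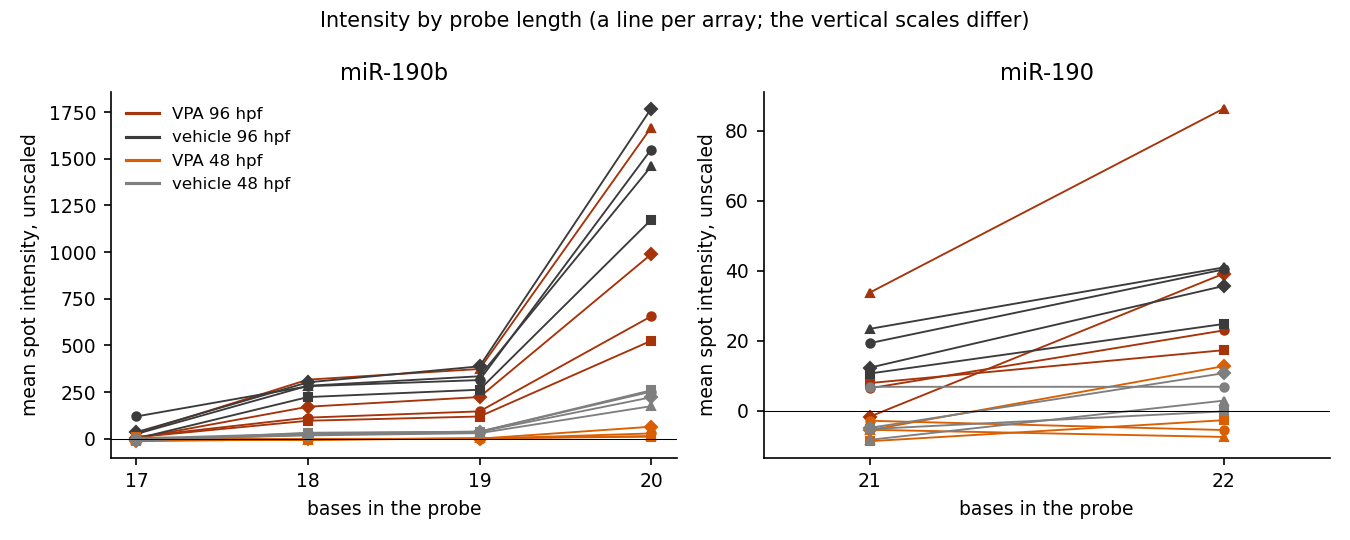
Mean spot intensity before scaling (vertical axis, a scale per panel) against probe length in bases for miR-190b and miR-190, with a line per array coloured by group. The 20-base miR-190b probe is brightest on every array at 96 hpf, while miR-190 stays at or below 86.4 and is well above background on no array.

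miR-190b was higher at 96 hpf than at 48 hpf in both treatments, where age and slide again cannot be told apart. In VPA embryos, where it was at background at 48 hpf, it was 2.94-fold higher at 96 hpf by the same bound and processing, again not a strict limit. Against VPA replicates 1 to 4 at 48 hpf, taken one at a time, the bounds were 2.79-fold, 2.32-fold, 2.26-fold and 5.09-fold. The largest again came from the bright replicate 4. No p is given for the fit there, since the 48 hpf values lay at or near the floor and their spread is not a measured one. In vehicle embryos miR-190b was 3.46-fold higher (log2 change 1.79 ± 0.26, SE, limma adjusted p = 1.36e-05). The spread behind this SE and p is pooled over all 4 groups. These include the VPA arrays at 48 hpf at or near the floor and those at 96 hpf, whose SD was 0.79. The vehicle groups compared here had SDs of 0.15 at 96 hpf and 0.12 at 48 hpf. The order of levels was VPA embryos at 48 hpf lowest, then vehicle embryos at 48 hpf, VPA embryos at 96 hpf and vehicle embryos at 96 hpf. The middle groups overlapped, since VPA replicate 4 at 96 hpf lay below all vehicle arrays at 48 hpf.

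miR-190 gave no level. On its 22-base probe the raw intensity at 96 hpf was 23.0, 17.3, 86.4 and 39.2 in VPA embryos, against 40.4, 24.8, 41.0 and 35.7 in vehicle embryos. At 48 hpf it was -5.48, -2.68, -7.46 and 12.8 in VPA embryos, against 6.88, -0.16, 2.91 and 10.7 in vehicle embryos. The values at 96 hpf were all above those at 48 hpf of the same treatment. These are unscaled, and the vehicle arrays as a whole were brighter at 96 hpf (75th percentile 1956 to 2406, against 897 to 1220). Other undetected probes were not compared. No miR-190 value was well above background by the rule that most spots must be. VPA replicate 3 at 96 hpf came nearest, with 50% of its spots well above background. A within-array difference between miR-190 and miR-190b was therefore not computed, and the pair differs in these data by detection: 0 of 16 arrays for miR-190 and 12 of 16 for miR-190b.

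**Figure D4:**
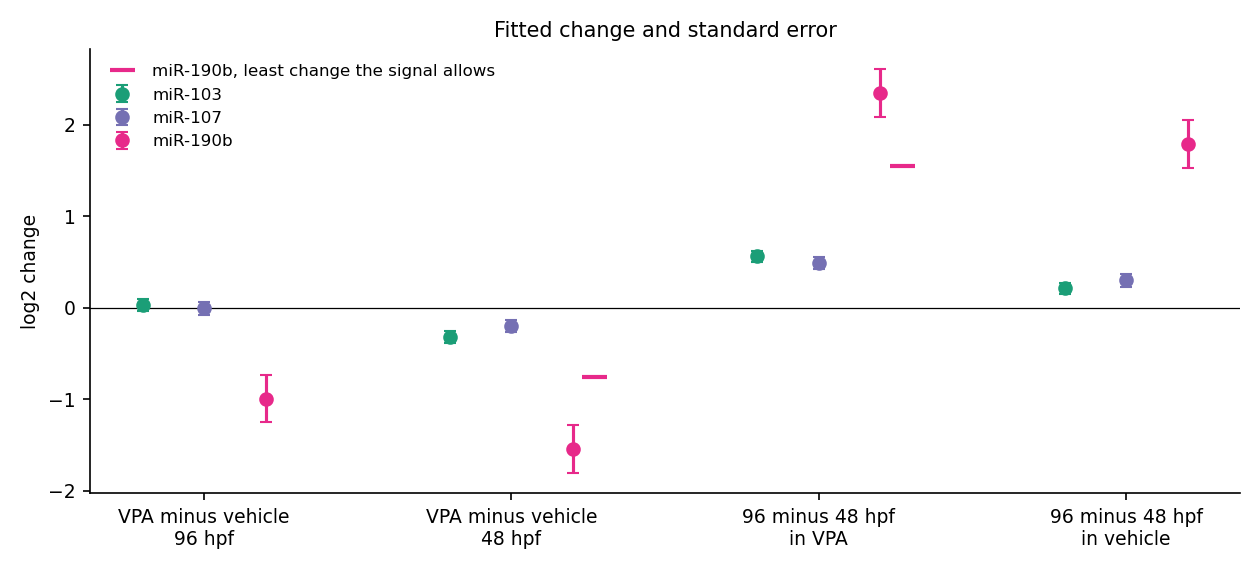
Fitted log2 change with its SE (vertical axis) of miR-103, miR-107 and miR-190b in 4 comparisons, as points with bars. Short dashes, labelled as the least change, give the bound where miR-190b was at background on the VPA arrays at 48 hpf. The bound is set against the dimmest detected signal and is not a strict limit. miR-190b lies farthest from 0 in each comparison, and the pantothenate kinase pair lies near 0 at 96 hpf and below 0 at 48 hpf between VPA and vehicle. The SE is pooled over the 4 groups. For miR-190b these include the VPA arrays at 48 hpf at or near the floor and those at 96 hpf, whose SD was 0.79.

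Among miRNAs measured in both groups, miR-190b ranked 3 of 173 from the lowest change at 96 hpf, where miR-107 ranked 94 and miR-103 ranked 109. At 48 hpf miR-103 ranked 22 and miR-107 ranked 35 of 156. miR-190b was unranked at 48 hpf as 1 of 8 miRNAs measured in only 1 of the groups. These ranks describe values by which the names were listed.

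**Figure D5:**
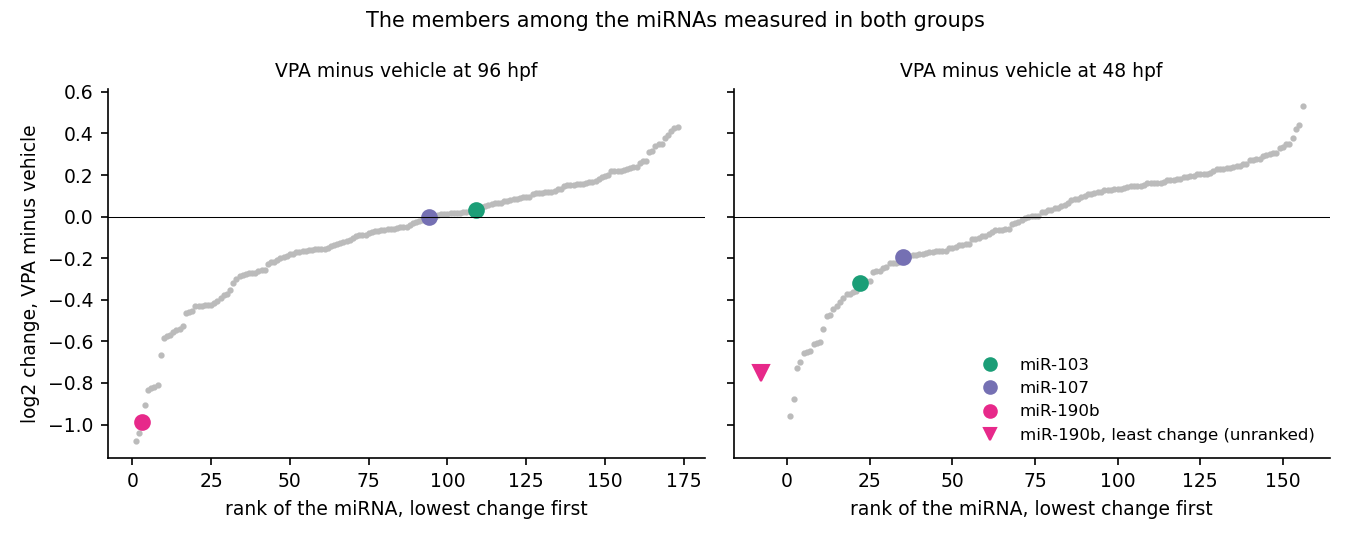
Log2 change between VPA and vehicle embryos (vertical axis) of each miRNA measured in both groups, against its rank from the lowest (horizontal axis), at 96 hpf on the left and 48 hpf on the right; coloured points are the members. The triangle, labelled as the least change, is the bound for miR-190b at 48 hpf, which is not a strict limit and has no rank. miR-190b has rank 3 at 96 hpf.

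The wider group of miR-15, miR-16 and their relatives, whose miRNAs share bases near the 5′ end with miR-103 and miR-107, is described by its counts and medians. Its list had 8 of 12 on the array, of which 7 were tested. Between VPA and vehicle, 6 were called higher and 0 lower at 96 hpf, beside 14.6% higher and 18.5% lower of all 178 miRNAs (median log2 change 0.24, against -0.03 over all). At 48 hpf 5 were called higher and 0 lower, beside 16.3% and 12.9% of all (median 0.22, against 0.0039). miR-16a was higher by 0.38 at 96 hpf and 0.53 at 48 hpf, and miR-457b by 0.41 and 0.33. With age, 7 of 7 were called lower in both treatments, beside 36.0% of all miRNAs in VPA and 34.3% in vehicle embryos, with median changes of -0.49 in VPA and -0.44 in vehicle embryos, and miR-15b fell by 0.88 in VPA and by 0.99 in vehicle embryos. miR-103 and miR-107 went the opposite way with age, while the list was chosen with earlier results known. The difference between list and pair was not tested.

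A list of other miRNAs that lie in introns of protein-coding genes in mammals had 15 of 16 names on the array, all tested. At 96 hpf the fit called 1 higher in VPA embryos (miR-455, a cartilage miRNA, by 0.43) and 1 lower (miR-139, by -0.38), beside 14.6% and 18.5% of all miRNAs, with a median of -0.06. At 48 hpf it called 1 higher (miR-126, the endothelial miRNA, by 0.17) and 4 lower, beside 16.3% and 12.9% of all miRNAs, with a median of -0.10. The lower ones were miR-218b (-0.48), miR-139 (-0.37), miR-338 (-0.31) and miR-140 (-0.24). With age 10 were called higher in each treatment, beside 41.6% of all miRNAs in VPA and 46.1% in vehicle embryos. The fit called 2 lower in VPA embryos (miR-153c by -0.87 and miR-153b by -0.51), beside 36.0% of all, and 0 in vehicle embryos, beside 34.3%. The medians were 0.29 in VPA and 0.34 in vehicle embryos, against 0.02 and 0.11 over all miRNAs. The largest rises with age were those of miR-338, hosted by a neuronal kinase gene in mammals (1.497 in VPA and 1.25 in vehicle embryos), and the cartilage miRNA miR-140 (1.14 and 0.95).

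The likeness of profiles was taken as Pearson's r over the 16 arrays, which fall into 4 groups and share slides, so it is a description. Among 134 candidates detected in every group, miR-103 was most like miR-138 (0.964), miR-107 (0.959) and miR-140* (0.958), and miR-107 most like miR-140* (0.964), miR-103 (0.959) and miR-138 (0.956). miR-190b, with 135 candidates, was most like miR-135c (0.982), miR-7a (0.973) and miR-96 (0.966). Their log2 changes between VPA and vehicle were -0.42, -0.42 and -0.27 at 96 hpf and -0.66, -0.44 and -0.73 at 48 hpf. With group means taken out, miR-103 and miR-107 still gave 0.795, and miR-107 had miR-103 as its nearest of all. On the same deviations miR-103 was nearest to miR-140* (0.916), miR-181a* (0.887) and miR-30e* (0.846), and miR-107 next to miR-181a* (0.763) and miR-338 (0.746). miR-190b was nearest to miR-19b (0.937), miR-19a (0.917) and miR-301a (0.913), and ran against miR-103 (-0.866). VPA replicate 4 at 96 hpf lay far from its group mean for both. It stood at 0.49 against a mean of 0.27 for miR-103, and at -2.65 against -1.53 for miR-190b. The SD of miR-190b was 0.79 in that group, against 0.15 and 0.12 in the vehicle groups at 96 and 48 hpf. The r values on deviations, above all those of miR-190b, thus lean on this 1 array, and r without it was not computed. Unlike its candidates, miR-190b was not detected in VPA embryos at 48 hpf. Its values there lay at or near the floor, so its r values depend in part on the floor.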

How the data were processed

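Per the file headers, the authors scanned 1-colour (Cy3) Agilent miRNA arrays and made the deposited intensity values with Agilent Feature Extraction (9.5.3.1; the submitters' processing notes give 9.5). The deposited intensity is background-subtracted within an array and not normalized between arrays. The deposited value table holds the same intensity, unscaled, with 100% of values within 1% of the scanner files. Other deposited columns, per the file headers, are flags of spots well above background, saturated or outlying.

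Control spots (715 of an array) and outlier spots (3.32% to 8.07%) were left out. Intensity was divided by the array's 75th percentile over 10360 spots, since 56.0% of probes were detected on an average array, floored at 0.0682 (log2 -3.87), logged and averaged over a probe's spots. No spot of a member was saturated. The brightest probe stood for a miRNA, and a miRNA was tested if, in any group, 3 or 4 arrays had most of its spots well above background. limma 3.58.1 (lmFit, eBayes) in R 4.3.3 and exact permutation tests in scipy 1.17.1 were run and checked on simulated data. The 4 arrays per group limit the precision.

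At 96 hpf VPA and vehicle residuals of the same replicate number correlated weakly (r = 0.289, 0.282, 0.276 and 0.248). At 48 hpf the signs were mixed (0.0971, -0.180, 0.324 and -0.151). Arrays of the same age and number also shared a column of the slide, and arrays of unequal numbers were not compared. Whether the numbers mark pairs is therefore not known. Named miRNAs were the members, 3 nearest profiles by each measure, and up to 4 of each list with the largest change. The members and lists were chosen with earlier results of these data known. Alternatives covered background correction, scaling, floor, filter, probe summary, value table, samples, replicate block and each array left out.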

Additional observations from a re-analysis of the deposited data

How the results depend on the processing

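Limits: 4 arrays per group, 1 slide per age, no dose, and miR-190b at background on all VPA arrays at 48 hpf. Normexp background correction started from the mean and background signal of each spot and added an offset of 50 before scaling. With it the calls fell to 0 at 96 hpf (22 at unadjusted p under 0.05, by limma) and 4 at 48 hpf between VPA and vehicle. In vehicle embryos they fell to 84 with age. The unscaled value table gave 0 (0 unadjusted), 0 (8 unadjusted) and 78. At 96 hpf there were 34 calls with no floor, 31 when detection on all 16 arrays was asked, and 36 with only the compared groups in the fit. Without the bright VPA arrays, a choice made after seeing the data, 48 hpf gave 81. With 1 array left out, calls ran from 43 to 68 at 96 hpf and from 38 to 83 at 48 hpf (83 without VPA replicate 4 at 96 hpf), and with age from 131 to 142 in VPA and from 135 to 151 in vehicle embryos.

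With normexp, miR-103 changed by -0.23 at 48 hpf and by 0.19 with age in vehicle embryos (limma adjusted p = 0.0819). miR-190b then changed by -0.18 at 48 hpf and by 0.61 with age in VPA embryos, which was not called. miR-103 minus miR-107 then moved by 0.0019 at 96 hpf, 0.0513 at 48 hpf and -0.13 with age in VPA embryos, and with quantile normalization by -0.0325 at 96 hpf and -0.0462 with age in VPA embryos. The normexp moves at 48 hpf and with age in VPA embryos, and both quantile moves, were opposite in direction to those reported above. Quantile normalization gave 0.11 for miR-107 at 96 hpf and -1.66 for miR-190b at 48 hpf. miR-190b at 48 hpf was -3.50 with no floor, which depends on the values set at background. Over the mean of its probes it was -0.39, where the shorter probes lay at or near the floor in both groups. The percentile over detected probes gave miR-103 -0.38 at 48 hpf. The unscaled table gave miR-103 0.26 at 96 hpf, -0.75 at 48 hpf and 1.15 with age in vehicle embryos (adjusted p = 0.0529), miR-107 0.23 and -0.63, and miR-190b -1.28 at 48 hpf. The medians of all miRNAs in that table were 0.20 at 96 hpf, -0.31 at 48 hpf and 0.98 with age in vehicle embryos. At 48 hpf the calls of miR-103, miR-107 and miR-190b all ended with normexp and with the unscaled table. Calls of the members between VPA and vehicle are a description only, since the names were listed with those values known. The miR-190b call at 96 hpf ended with normexp (-0.94), no floor, the unscaled table (-0.76) and the compared groups alone (-0.99). The miR-107 call at 48 hpf (-0.28 with normexp) also ended with quantile normalization (-0.17), the mean of its probes (-0.15) and the compared groups alone. The cause was not tested.

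Leaving out 1 array, miR-103 ran from -0.04 to 0.07 at 96 hpf and miR-107 from -0.06 to 0.02, and miR-190b from -1.19 to -0.62. At 48 hpf miR-103 ran from -0.34 to -0.30, miR-107 from -0.24 to -0.15 and the fitted miR-190b value from -1.59 to -1.50, a range kept narrow by the floor, at which no VPA array was above background. Detected-probe scaling moved the median of all miRNAs with age to 0.16 in VPA (0.02 as reported) and 0.22 in vehicle embryos (0.11 as reported). It gave 12 higher and 32 lower calls at 48 hpf (29 and 23 as reported) and 86 and 54 with age in VPA embryos (74 and 64 as reported). Quantile normalization gave 34 and 25 at 96 hpf (26 and 33 as reported). The replicate block gave 57 calls at 96 hpf, 55 at 48 hpf, 138 with age in VPA and 143 in vehicle embryos, and changed no call of miR-103, miR-107 or miR-190b. Differences between miR-190 and miR-190b were not run, since miR-190 was detected on no array.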
